A study of Mus musculus with 23 samples.

Results

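The sarcomeric myosin heavy chains are the motor proteins of the thick filament of striated muscle. Their 8 genes on the array, Myh1, Myh2, Myh3, Myh4, Myh6, Myh7, Myh7b and Myh8, were chosen by name: every probe whose gene name is one of these symbols was taken. This gave 11 probes of the 55681 on the array, and 8 of its 36161 gene names. Myh3, Myh6 and Myh8 have 2 probes each and the other members have 1, and each probe is a single spot of 60 bases.

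The study followed muscle cells from embryonic stem cells to adult muscle, with 7 groups of 3 samples and 1 further muscle sample on 23 one-colour arrays. The stem cells were the male lines cGR8 (129Sv) and RD1 (129X1/SvJ) and the line E14tg2 (129/Ola), whose sex is not given and whose 2 arrays were averaged to 1 sample. Primary myoblasts of male C57BL/6J mice were taken at passage 0 and, after expansion, while proliferating at passages 8 to 10. They grew on collagen I in Ham's F-10 medium with serum and basic fibroblast growth factor. Myotubes came from confluent proliferating myoblasts put on Matrigel and then kept in DMEM with 2% horse serum for 1, 2 or 4 days. Quadriceps muscle came from male mice, replicate 1 being C57BL/6J and replicates 2 and 3 of mixed 129Sv/C57BL/6J background. The further sample was skeletal muscle of a male NOD/ShiLtj mouse, and it has no replicate. No group carried a transgene or a deletion, ages of the animals are not given in the labels, and the labels do not say whether replicates came from separate animals.

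Each muscle fibre carries mainly 1 or a few heavy chain isoforms, and the isoform sets how fast the fibre contracts. In rodents the embryonic chain (Myh3) and the perinatal chain (Myh8) are made while muscle forms, and the adult fast chains IIa (Myh2), IIx (Myh1) and IIb (Myh4) replace them after birth. Slow fibres and the ventricle of the heart use the beta chain (Myh7), the heart uses the alpha chain (Myh6), and Myh7b is a related slow-type chain. The genes Myh3, Myh2, Myh1, Myh4 and Myh8 lie side by side on chromosome 11, and Myh6 and Myh7 lie next to each other on chromosome 14.

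Because the heavy chains are alike in sequence, the probes decide which gene a value speaks for. The 2 probes of Myh8 lie 28391 bases apart and gave the same order of the groups. The first, A_55_P2120161, lies at chr11:67093475-67093534 and the other, A_51_P143296, at chr11:67121925-67121984, both on the plus strand of mouse build mm9. Their sequences are shown because the account of Myh8 rests on both. The longest run of bases that either has in common with any probe of another gene name on the array is 12. Only probes were compared, and transcripts of the other heavy chains were not searched. The run therefore cannot say whether these probes also match RNA of another member.
Myh8 A_55_P2120161: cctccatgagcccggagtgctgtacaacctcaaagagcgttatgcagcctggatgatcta
Myh8 A_51_P143296: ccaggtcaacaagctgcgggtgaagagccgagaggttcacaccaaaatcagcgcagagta

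Of the member probes, the longest run in common with a probe of another gene, 24 bases, was in Myh3 probe A_55_P2083406, at chr11:66915107-66915166. Its partner is the probe of Myh15, another myosin heavy chain gene, at chr16:49196943-49197002 (mm9, plus strand). The capitals mark that run in both.
Myh3 A_55_P2083406: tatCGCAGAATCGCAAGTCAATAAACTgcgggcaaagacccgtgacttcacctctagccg
Myh15 A_55_P2090065: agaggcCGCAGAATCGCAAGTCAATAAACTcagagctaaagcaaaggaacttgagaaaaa
The levels of these probes had a Pearson r of 0.13 over 21 samples and of 0.72 over the 18 without quadriceps, and both were above background in 9 samples. Whether the Myh3 probe also picks up Myh15 RNA was not tested. The other Myh3 probe, A_55_P2066440, at chr11:66915724-66915783, shares at most 15 bases with a probe of another gene name and followed A_55_P2083406 with an r of 0.999. The remaining probes lie on mm9 at chr11:67038002-67038061 (Myh1), chr11:67010960-67011019 (Myh2) and chr11:67073834-67073893 (Myh4), all on the plus strand. Those of Myh6 lie at chr14:55560774-55560833 (A_55_P2173952) and chr14:55584132-55584191 (A_55_P2140453) and that of Myh7 at chr14:55589581-55589640, on the minus strand. The Myh7b probe lies at chr2:155459122-155459181 on the plus strand. Which exons these probes lie in was not analysed here.

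A level is the log2 of the scanner software's processed signal minus the log2 of its array's 75th percentile, so a level of 0 is that percentile, and each probe is compared only with itself. That percentile was lowest, 87.7 intensity units, for replicate 1 of the proliferating myoblasts, against 208 to 765 on the other arrays, so this array has the highest floor for faint signals. The share of spots well above background ran from 39.1% to 60.1%. No member value was saturated or flagged by the scanner software, and the 2 arrays of E14tg2 differed by at most 0.28 in member levels above background. All 7 pluripotency markers were well above background in the stem cells, and 9 of 9 fast-fibre markers in myoblasts, myotubes and quadriceps, as against 7 or 8 in stem cells. A comparison tested those probes that all samples of either group showed well above background. A call needs an adjusted p (Benjamini-Hochberg, over all tested probes) under 0.05 and a change of 2-fold or more. Each sample is given in the order of replicates 1, 2 and 3, and changes are log2 differences that carry the standard error (SE) of the limma fit, with n = 3 in each group.

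**Figure D1:**
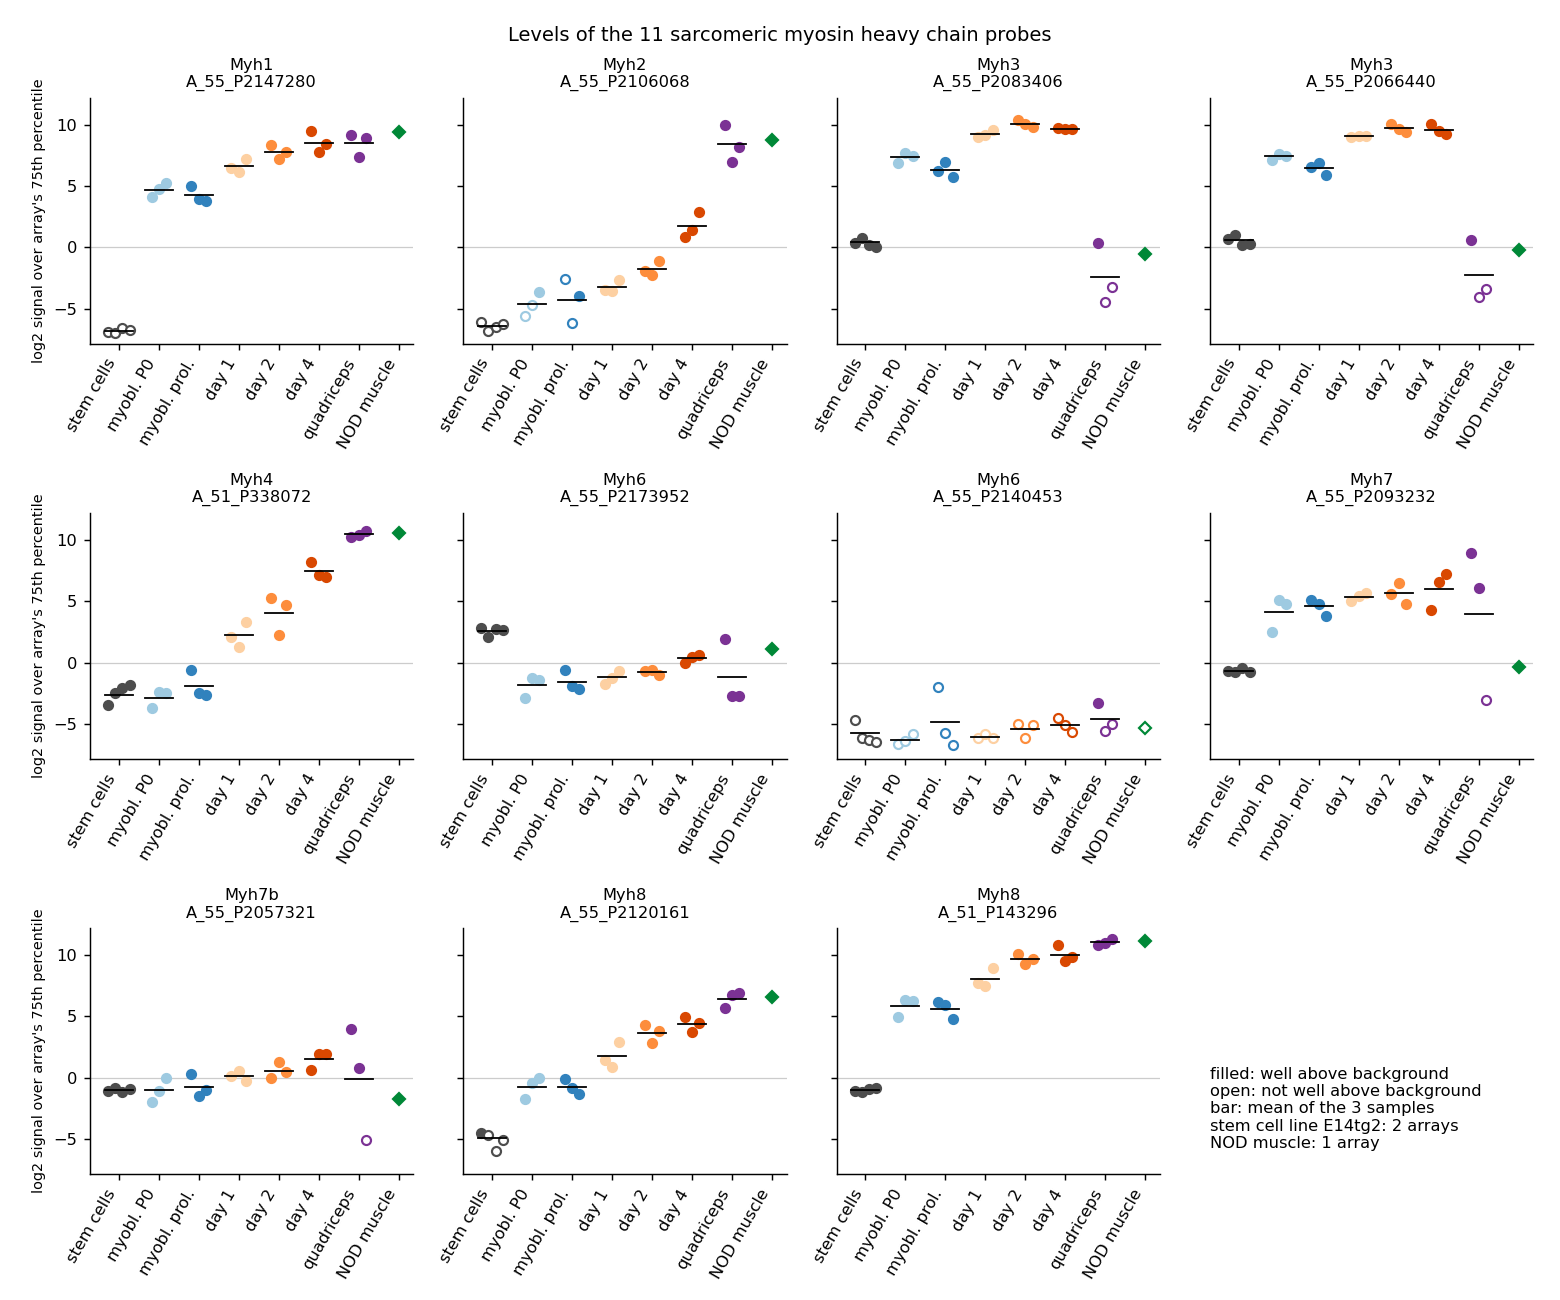
Level of each member probe (log2 relative to the array's 75th percentile) in every sample of the 7 groups and the NOD muscle, with open symbols for arrays on which the probe was not well above background. Both Myh3 probes are highest in myotubes and low in quadriceps, whereas Myh2 and Myh4 are highest in quadriceps.

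Set against stem cells, passage 0 myoblasts had more RNA of the embryonic, perinatal, IIx and beta chains. Of 11 member probes 9 were tested, 6 rose and 1 fell, where 38.1% of all tested probes were called, 17.5% higher and 20.6% lower. The 6 were both probes of Myh3 and of Myh8 and those of Myh1 and Myh7, and the 1 that fell was Myh6 probe A_55_P2173952. The median change was 4.82 over the tested member probes and -0.27 over all tested probes. Proliferating myoblasts against stem cells gave the same counts, 6 higher and 1 lower of 9 tested, beside 35.4% of all tested probes called, 14.9% higher and 20.5% lower. In bulk samples, fewer expressing cells and less RNA per cell cannot be told apart.

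Expansion in culture was not accompanied by a called change in any member. Between proliferating and passage 0 myoblasts 0 of 9 tested member probes were called with limma, and 0 had an unadjusted p under 0.05, where 0.829% of all tested probes were called, 0.309% higher and 0.52% lower. The member median was -0.01, beside 0.13 for all.

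Over the first day of differentiation 6 of 10 tested member probes rose and 0 fell, where 8.2% of all tested probes were called, 5.32% higher and 2.88% lower. They were Myh1, Myh4 and both probes of Myh3 and of Myh8, with a median change over the tested members of 2.39 against -0.04 for all. From day 1 to day 2, 0 of 10 were called with limma, beside 2.39% of all tested probes, 0.489% higher and 1.9% lower, though 4 had an unadjusted p under 0.05. From day 2 to day 4 again 0 of 10 were called, beside 0.263%, 0.208% higher and 0.0552% lower, and 2 had an unadjusted p under 0.05, those of Myh2 and Myh4. The 6 calls of the first day rest on the spread pooled over the 7 groups: a fit of only these 2 groups called 0 member probes and 0 of all 25737.

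Over the whole 4 days of differentiation the fast and developmental chains rose. Of 10 tested member probes 7 rose and 0 fell, where 24.4% of all tested probes were called, 14.2% higher and 10.2% lower. The 7 were Myh1, Myh2, Myh4 and both probes of Myh3 and of Myh8. The comparisons with proliferating myoblasts share those samples, as do those with day 4 and with stem cells.

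Quadriceps differed from day 4 myotubes in both directions. Of 10 tested member probes 3 were higher and 2 lower, where 31% of all tested probes were called, 15.2% higher and 15.9% lower. Markers of other cell types moved with this comparison. Of 6 fibroblast markers 5 to 6 were above background in quadriceps, with a summed level of 7.89 to 8.82, against 2 to 3 and 3.24 to 3.93 on day 4. All 5 endothelial markers were above background in quadriceps and 1 to 3 on day 4, with Cdh5 and Emcn, and Lum, Pdgfra and Tcf21 of the fibroblast list, not above background in any day 4 sample. Their part in the changes below was not tested. Higher were Myh2, Myh4 and Myh8 probe A_55_P2120161, and lower were both probes of Myh3. All 32 member calls of the 8 comparisons kept their direction on each of the 3 slides, which hold 1 sample of every group each. The smallest change within a slide was 0.95. The shared direction was fixed in advance, since the 2 groups of every call did not overlap, so it is no further check.

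**Figure D2:**
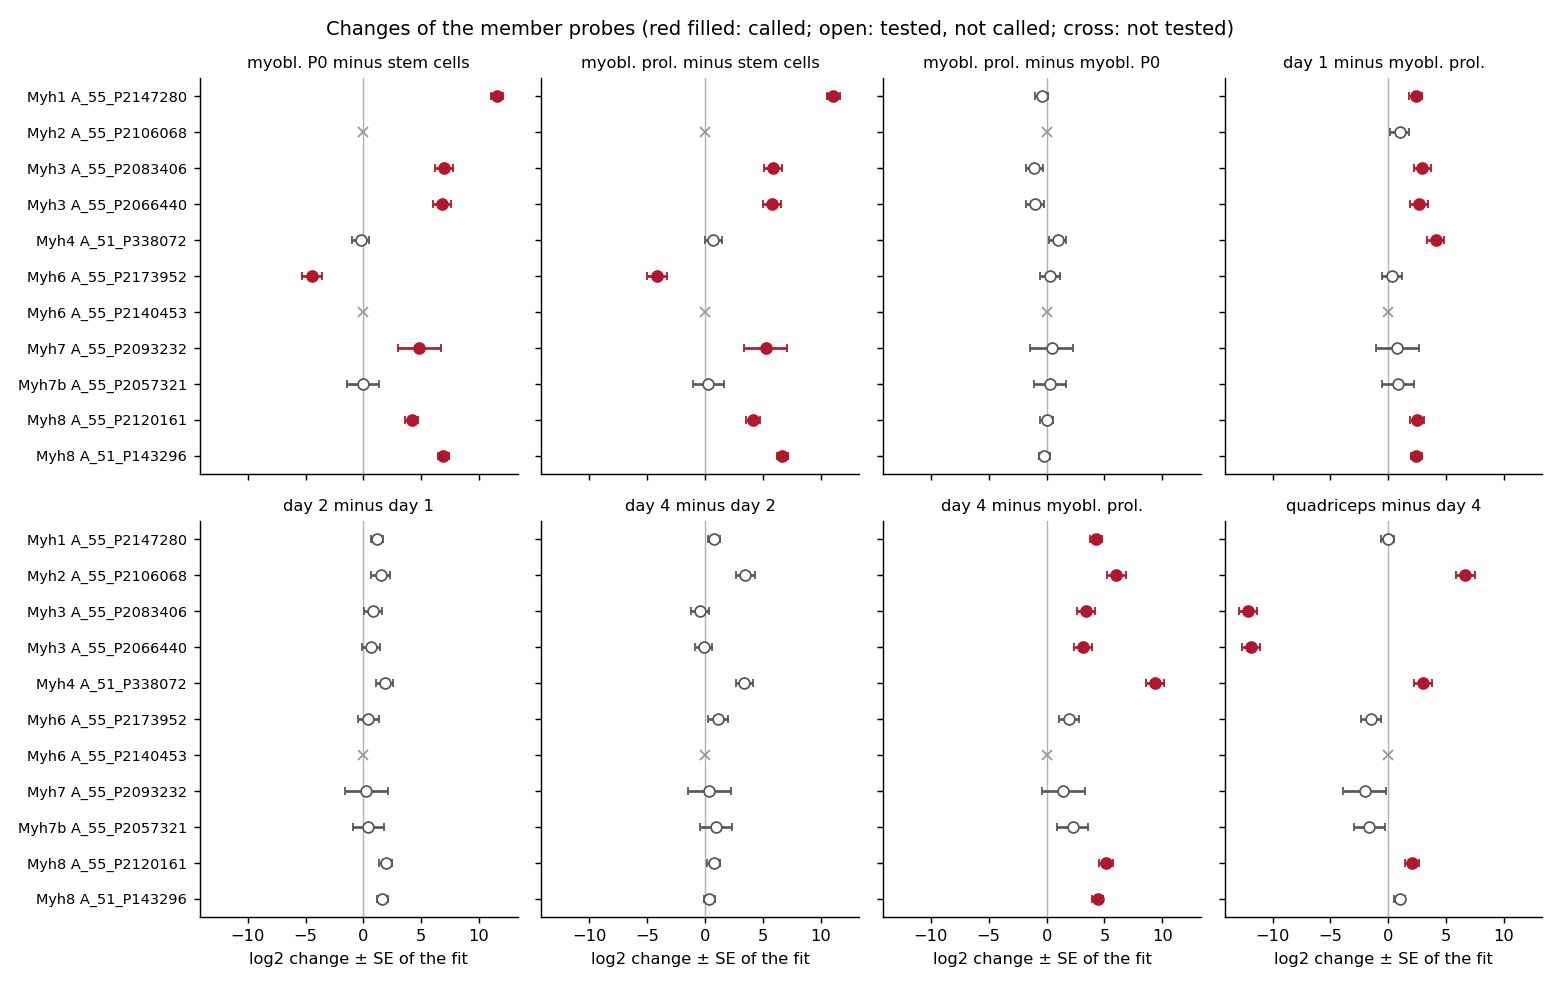
Change of each tested member probe (log2, with its standard error) in the 8 comparisons, with the called ones marked. Changes against stem cells and over 4 days of differentiation lie mostly above 0, while in quadriceps against day 4 myotubes Myh3 lies near -12 and Myh2 and Myh4 lie above 3.

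Myh3 encodes the embryonic heavy chain, a marker of newly formed and regenerating fibres. Its probe A_55_P2083406 stood at 0.40 and 0.76 in the first stem cell samples and at 0.17 and 0.047 on the arrays of E14tg2. It stood at 6.89, 7.75 and 7.46 in passage 0 myoblasts and at 6.22, 6.96 and 5.75 in proliferating myoblasts. Every myoblast sample thus lay far above every stem cell sample before differentiation was induced. The change was 6.94 at passage 0 (SE 0.77, 123-fold, adjusted p = 8.8e-07) and 5.89 in proliferating myoblasts (59.1-fold, adjusted p = 7.5e-06).

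In myotubes the same probe reached 9.05, 9.15 and 9.60 on day 1, 10.39, 10.10 and 9.82 on day 2 and 9.76, 9.70 and 9.64 on day 4. All myotube samples lay above all myoblasts. Against proliferating myoblasts it rose by 2.95 on day 1 (7.74-fold, adjusted p = 0.022) and by 3.39 on day 4 (10.5-fold, adjusted p = 0.003). After day 1 no step was called, with changes of 0.84 to day 2 (adjusted p = 0.82) and -0.40 from day 2 to day 4, although the samples of day 2 overlap neither those of day 1 nor those of day 4. The pooled SE of 0.77 includes quadriceps, with an SD of 2.52, far wider than these days. The call on day 1 was lost without proliferating replicate 3 or without any of the day 1 samples, with an adjusted p of up to 0.096.

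Quadriceps held little Myh3 signal. It was 0.40 in replicate 1 and -4.45 and -3.20 in the other two, where it was not well above background, and it was -0.55 in the NOD muscle. Replicate 1 lay among the stem cells and the others below them. Its change against day 4 myotubes was -12.12 (SE 0.77, 4438-fold lower, adjusted p = 5.0e-09), and it was 2.84 lower than in stem cells (adjusted p = 0.004). Since only 1 of 3 quadriceps samples was above background, the size of this fold is loosely set.

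The other Myh3 probe, A_55_P2066440, gave nearly the same picture. It was at 6.53, 6.91 and 5.91 in proliferating myoblasts, at 10.04, 9.53 and 9.24 on day 4, and at 0.64, -4.05 and -3.41 in quadriceps, the last 2 not above background. It was 6.79 higher at passage 0 than in stem cells (111-fold), 3.16 higher on day 4 than in proliferating myoblasts (8.92-fold, adjusted p = 0.0052) and changed by -11.88 from day 4 to quadriceps. Its change on day 1 was 2.63 (adjusted p = 0.042), and that call was lost in 16 of the 21 fits that leave out 1 sample, with an adjusted p of up to 0.12. Ordered from low to high, the groups ran from quadriceps through stem cells, proliferating and passage 0 myoblasts to the myotubes. No step between neighbours from proliferating myoblasts upward was called by the fit, whose SE of 0.77 pools all groups, quadriceps with an SD of 2.55 included. By this probe the samples of proliferating myoblasts, passage 0 and day 1 do not overlap.

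**Figure D3:**
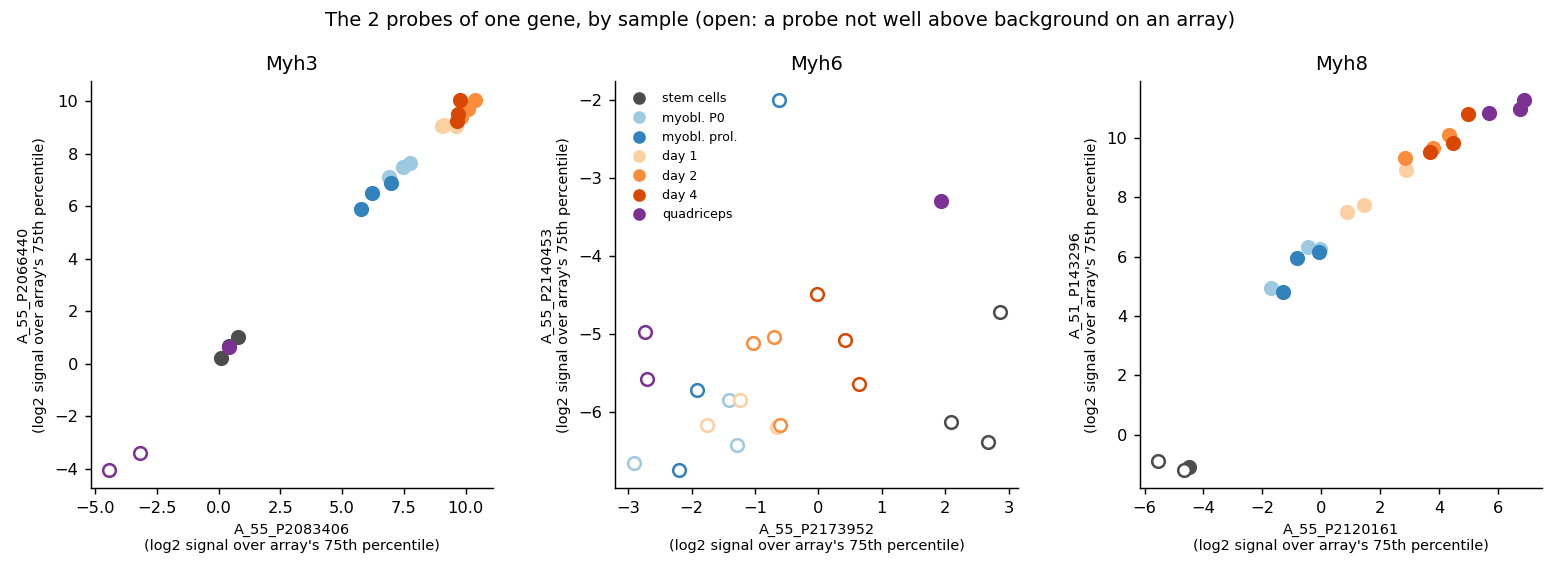
Levels of the 2 probes of Myh3, of Myh6 and of Myh8 against each other, a point per sample. The Myh3 points follow a line and the Myh8 points nearly so, while the Myh6 probes show no common course, with most A_55_P2140453 values not above background.

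Myh8 encodes the perinatal heavy chain, which follows the embryonic chain during muscle growth. Probe A_51_P143296, whose sequence is printed above, stood at -1.07 and -1.19 in the first stem cell samples and at -0.94 and -0.80 on the arrays of E14tg2. It stood at 4.93, 6.34 and 6.27 at passage 0 and at 6.16, 5.96 and 4.81 in proliferating myoblasts. The myoblast groups overlapped each other and lay above all stem cells, by 6.89 at passage 0 (SE 0.49, 119-fold, adjusted p = 3.9e-09).

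In differentiation this probe went to 7.75, 7.51 and 8.93 on day 1, to 10.10, 9.32 and 9.66 on day 2 and to 10.82, 9.51 and 9.84 on day 4. Days 2 and 4 overlapped, and both lay above day 1. It rose by 2.42 on the first day (5.36-fold, adjusted p = 0.0041) and by 4.42 over 4 days (21.3-fold, adjusted p = 6.9e-06). In quadriceps it was at 10.85, 10.97 and 11.29 and in the NOD muscle at 11.20, all above day 4. The difference from day 4, 0.98 (adjusted p = 0.13), was not called.

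The other Myh8 probe, A_55_P2120161, was above background in stem cells only in replicate 1, at -4.50. It rose to -1.71, -0.44 and -0.035 at passage 0, by 4.17 (SE 0.59, adjusted p = 1.5e-05). It was at -0.075, -0.82 and -1.30 in proliferating myoblasts and at 1.44, 0.87 and 2.88 on day 1, a rise of 2.46 (5.52-fold, adjusted p = 0.014). Day 1 lay wholly above the proliferating myoblasts. The call was lost without day 1 replicate 3 (adjusted p = 0.0999) or without proliferating replicate 3 (adjusted p = 0.052).

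It was at 4.98, 3.70 and 4.48 on day 4, at 5.68, 6.74 and 6.88 in quadriceps and at 6.58 in the NOD muscle. Quadriceps lay above day 4 in every sample, by 2.04 (4.12-fold, adjusted p = 0.012). Without day 4 replicate 2 the adjusted p was 0.063 and without quadriceps replicate 3 it was 0.054. The 2 probes of Myh8 followed each other with an r of 0.965 over 21 samples, and both put quadriceps highest and stem cells lowest, but the step from day 4 to quadriceps was called for 1 of them.

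A pair of probes that the array names only by transcript, ENSMUST00000108685 and ENSMUST00000108686, lie between the probes of Myh8 on the same strand and list a transcript that Myh8 probe A_55_P2120161 also lists. They were singled out after their values were seen. Through differentiation they rose with Myh8, but not before it. From stem cells to passage 0, ENSMUST00000108685 changed by 0.49 (adjusted p = 0.53) and was not called by limma. Over the same step the Myh8 probes rose by 4.17 and 6.89. ENSMUST00000108686 was not above background in any stem cell or myoblast sample. ENSMUST00000108685 (A_55_P2120169, chr11:67095524-67095583) was at -1.86, -2.24 and -3.75 in proliferating myoblasts, the first not above background, and at 2.74, 2.21 and 2.31 on day 4. It rose by 5.03 (32.8-fold, adjusted p = 7.3e-06) in those 4 days.

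In quadriceps, where both Myh8 probes were highest, ENSMUST00000108685 was not well above background in any of 3 samples, at -4.35, -5.51 and -4.92. It was at least 62.7-fold lower than on day 4 (adjusted p = 2.7e-08), the bound being set against the background floor of each array. ENSMUST00000108686 (A_51_P239800, chr11:67108324-67108383) was at -0.65, -1.60 and 0.62 on day 4 and not above background in quadriceps, where it was at least 8.05-fold lower (adjusted p = 3.8e-05). With Myh8 probe A_55_P2120161 their r was 0.92 and 0.94 over the 18 samples other than quadriceps, and 0.37 and 0.57 over all 21. With A_51_P143296 it was 0.83 and 0.86 over the 18, and 0.45 and 0.62 over all 21. ENSMUST00000108686 was above background together with either Myh8 probe in only 9 of 21 samples. Probes of 1 locus thus moved together through differentiation, and apart in adult muscle and from stem cells to passage 0. Whether the Myh8 probes also pick up RNA of other heavy chains in muscle was not tested.

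**Figure D4:**
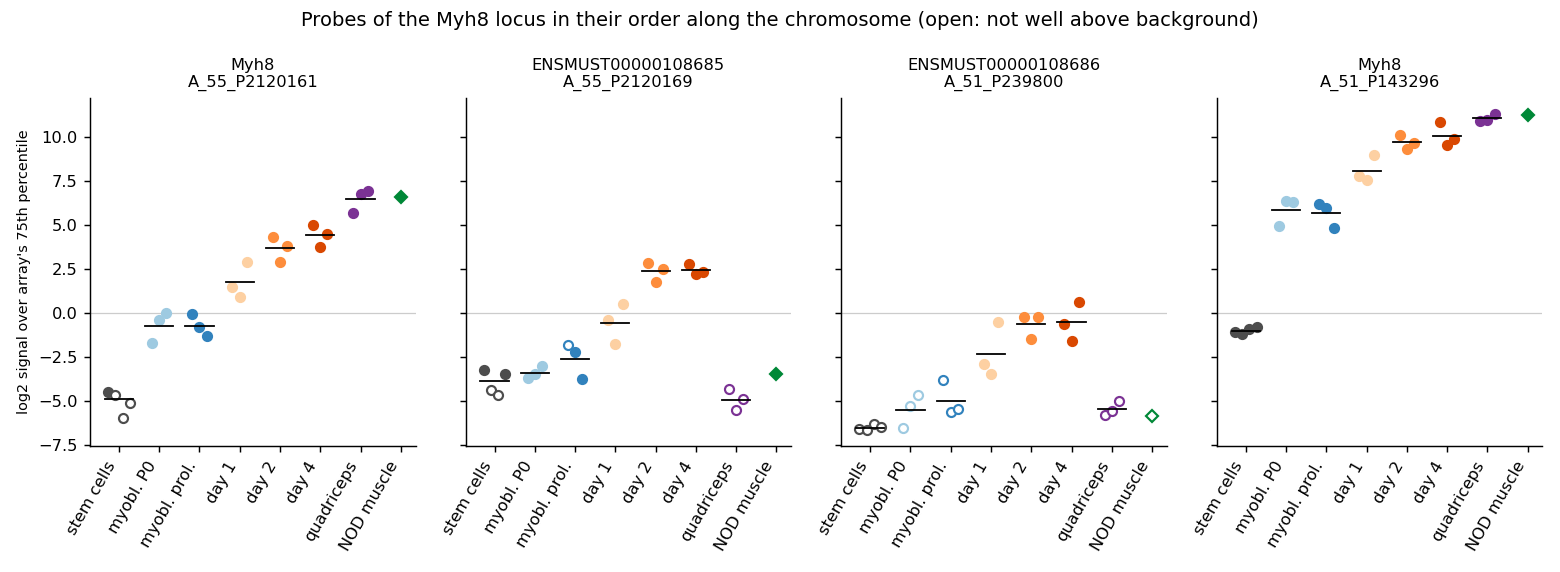
Mean level (log2 relative to the array's 75th percentile) with each sample, by group, for the 2 Myh8 probes and for the 2 probes between them that are named by transcript. All 4 rise through differentiation, and in quadriceps the Myh8 probes stay high while the other two are not above background.

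Of the adult fast chains, IIx (Myh1) was already high in myoblasts. Its probe was not above background in any stem cell sample, at -6.87 and -6.95 and, in E14tg2, -6.61 and -6.74. It was at 4.09, 4.76 and 5.28 at passage 0 and at 5.02, 3.96 and 3.82 in proliferating myoblasts. These groups lie far apart from stem cells, and the level was at least 648-fold higher at passage 0 (adjusted p = 3.2e-11) and at least 477-fold higher in proliferating myoblasts (adjusted p = 5.7e-11).

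Myh1 reached 6.50, 6.16 and 7.24 on day 1, 8.32, 7.22 and 7.82 on day 2 and 9.49, 7.76 and 8.43 on day 4. It rose by 2.37 on the first day (SE 0.53, 5.15-fold, adjusted p = 0.0096) and by 4.29 over 4 days (19.6-fold, adjusted p = 1.9e-05). The first-day call was lost without day 1 replicate 3 (adjusted p = 0.064). The steps between day 1, day 2 and day 4 were not called. In quadriceps it was at 9.20, 7.41 and 8.90 and in the NOD muscle at 9.38, a range that overlaps day 4. The difference was -0.059 with an SE of 0.53 (adjusted p = 0.95), so of the fast chains it is the one with no called difference between 4-day myotubes and adult muscle.

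Myh2, the IIa chain of oxidative fast fibres, was above background in every sample of a group only from day 1 on. It was not above background in stem cells. Of the passage 0 samples at -5.61, -4.68 and -3.62 and the proliferating ones at -2.62, -6.19 and -3.97, only the third of each was above background. In myotubes it was at -3.50, -3.56 and -2.68 on day 1, at -1.92, -2.24 and -1.08 on day 2 and at 0.89, 1.46 and 2.87 on day 4.

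Myh2 was 6.00 higher on day 4 than in proliferating myoblasts (SE 0.82, 63.9-fold, adjusted p = 4.2e-05). The value in proliferating replicate 1, the array with the high floor, is not above background, and with the authors' values the change was 4.13. In quadriceps it was at 10.01, 6.98 and 8.23 and in the NOD muscle at 8.77. All lay above day 4, by 6.67 (102-fold, adjusted p = 6.0e-06).

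Myh4, the IIb chain of the fastest fibres, did not differ detectably between stem cells and myoblasts. It was at -3.44 and -2.50 in the first stem cell samples, -2.06 and -1.81 in E14tg2, -3.68, -2.43 and -2.48 at passage 0 and -0.64, -2.47 and -2.61 in proliferating myoblasts. These groups overlapped, with a change of -0.24 (adjusted p = 0.82) at passage 0 and 0.72 (adjusted p = 0.47) in proliferating myoblasts. It then rose on day 1 to 2.07, 1.23 and 3.33, by 4.12 (SE 0.74, 17.3-fold, adjusted p = 0.0018).

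It was at 5.28, 2.22 and 4.69 on day 2 and at 8.23, 7.16 and 6.98 on day 4. The step from day 2 to day 4 was 3.40 (adjusted p = 0.064), and the rise over 4 days was 9.37 (660-fold, adjusted p = 7.0e-07), which is the greatest of the member probes tested. In quadriceps it was at 10.25, 10.43 and 10.71 and in the NOD muscle at 10.58, so the replicates lay close together. That is 3.01 above day 4 (8.03-fold, adjusted p = 0.0039), with no overlap.

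The promoters of the fast and perinatal chains are shown because these neighbouring genes all rose over 4 days of differentiation and share runs of bases there. Their courses were not equally alike. Over the 18 samples without quadriceps, r ran from 0.67 (Myh1 with Myh4) to 0.98 (Myh1 with Myh8). Myh3, which rose as well and is not shown, shares a run of at most 11 bases with them. The sequences are the 250 bases before the start of each gene in RefSeq on build GRCm38.p6, 5′ to 3′ on the plus strand, a build other than that of the probe positions, and all 11 member probes matched a RefSeq gene. Capitals mark TATAAA, the core of the TATA box, and the MEF2 consensus, both searched on both strands.
Myh2, chr11:67170777-67171026: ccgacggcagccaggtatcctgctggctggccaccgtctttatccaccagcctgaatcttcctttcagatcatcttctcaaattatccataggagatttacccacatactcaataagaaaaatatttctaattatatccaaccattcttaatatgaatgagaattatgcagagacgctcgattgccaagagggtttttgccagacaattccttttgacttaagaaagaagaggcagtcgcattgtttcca
Myh1, chr11:67199852-67200101: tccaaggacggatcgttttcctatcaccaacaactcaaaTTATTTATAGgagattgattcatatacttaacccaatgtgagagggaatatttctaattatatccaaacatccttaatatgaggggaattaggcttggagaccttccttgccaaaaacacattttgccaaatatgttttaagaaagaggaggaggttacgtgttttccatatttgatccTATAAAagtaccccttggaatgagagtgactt
Myh4, chr11:67237562-67237811: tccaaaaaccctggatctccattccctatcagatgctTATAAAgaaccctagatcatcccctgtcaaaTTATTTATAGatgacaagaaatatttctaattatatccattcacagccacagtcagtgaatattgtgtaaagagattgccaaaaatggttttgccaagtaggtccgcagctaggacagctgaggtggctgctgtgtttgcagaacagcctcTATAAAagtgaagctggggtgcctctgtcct
Myh8, chr11:67276874-67277123: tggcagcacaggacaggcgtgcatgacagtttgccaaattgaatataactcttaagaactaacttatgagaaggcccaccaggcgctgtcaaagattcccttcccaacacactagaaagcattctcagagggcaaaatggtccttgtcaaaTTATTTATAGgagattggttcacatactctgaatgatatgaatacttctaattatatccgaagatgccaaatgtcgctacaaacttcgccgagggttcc
The MEF2 consensus was found in Myh1, Myh4 and Myh8, 211, 182 and 99 bases before the start, and in none of the other member windows. Among all 32851 windows of this length 2.92% hold it. It contains TATAAA on the other strand, which is found besides at 32 bases in Myh1, at 213 and 31 in Myh4 and at 29 in Myh3, and in 12.4% of all windows. Around the MEF2 match Myh1 and Myh8 share the 22 bases TCAAATTATTTATAGGAGATTG, which 2 of the 32851 windows hold. Myh1 and Myh2 share the 21 bases AATATTTCTAATTATATCCAA, which are also held by 2 windows, and Myh2 and Myh4 share AAATATTTCTAATTATATCCA. The E-box CANNTG was found in Myh3, Myh4, Myh6, Myh7, Myh7b and Myh8, and in 66.2% of all windows. A match describes these letters only.

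None of the slow and cardiac chains was called in differentiation. Their levels varied widely among quadriceps samples, with an SD of 2.68 to 6.28 for the tested probes. Myh3 varied there as well, with an SD of 2.52 and 2.55. This spread enters the SE of each probe. With 1 quadriceps replicate left out, Myh6 or Myh7b was called over 4 days, as given below. Myh7, the beta chain of slow fibres, was at -0.65 and -0.76 in the first stem cell samples and -0.47 and -0.75 in E14tg2. It was at 2.49, 5.12 and 4.81 at passage 0 and at 5.09, 4.81 and 3.83 in proliferating myoblasts. Every myoblast sample lay above every stem cell sample.

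The change against stem cells was 4.82 at passage 0 (SE 1.85, 28.1-fold, adjusted p = 0.046) and 5.25 in proliferating myoblasts (38.1-fold, adjusted p = 0.032). The first call was lost in 15 of the 21 fits leaving out 1 sample, with an adjusted p of up to 0.13, and the second in 5 of 21, up to 0.076. The first was also lost with no sample left out. Its adjusted p was 0.054 with quantile normalization, 0.072 with no filter on dim probes and 0.060 with both groups above background. It was 0.053 with slide as a block and 0.054 with the NOD muscle added. Both calls are near the threshold, and the SE pools all 7 groups, quadriceps included. Myotubes were at 5.04, 5.40 and 5.68 on day 1, 5.59, 6.52 and 4.81 on day 2 and 4.29, 6.54 and 7.20 on day 4. They overlapped with each other, and the change over 4 days was 1.43 (adjusted p = 0.65).

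In quadriceps Myh7 was at 8.92 in replicate 1, 6.10 in replicate 2 and -3.09 in replicate 3, where it was not above background, and it was at -0.40 in the NOD muscle. The group thus spans more than its whole range elsewhere. Its difference from day 4, -2.03 (SE 1.85, adjusted p = 0.44), was not called, and left-out fits put it between -4.51 and 1.50. An unnamed probe adjacent to the Myh7 probe, A_55_P2093231, gave 9.36, 6.69 and -5.27, the last not above background, and followed Myh7 with an r of 0.989.

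Other slow-fibre genes ordered the quadriceps samples in the same way. The slow troponins were at 8.50, 5.90 and -0.22 for Tnnt1, 5.73, 2.40 and -2.36 for Tnni1 and 5.38, 2.28 and -4.47 for Tnnc1, the last not above background. The slow light chain Myl2 was at 8.75, 5.42 and 3.60 and Myl3 at 10.11, 7.05 and 4.84. The summed level of the 8 slow-fibre markers was 11.06, 8.01 and 5.83 in replicates 1, 2 and 3 and 5.20 in the NOD muscle, with 8, 8 and 7 markers above background in the 3 replicates. Their part in the differences between quadriceps samples was not tested. Strain and sample cannot be told apart here, replicate 1 being the only C57BL/6J one.

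**Figure D5:**
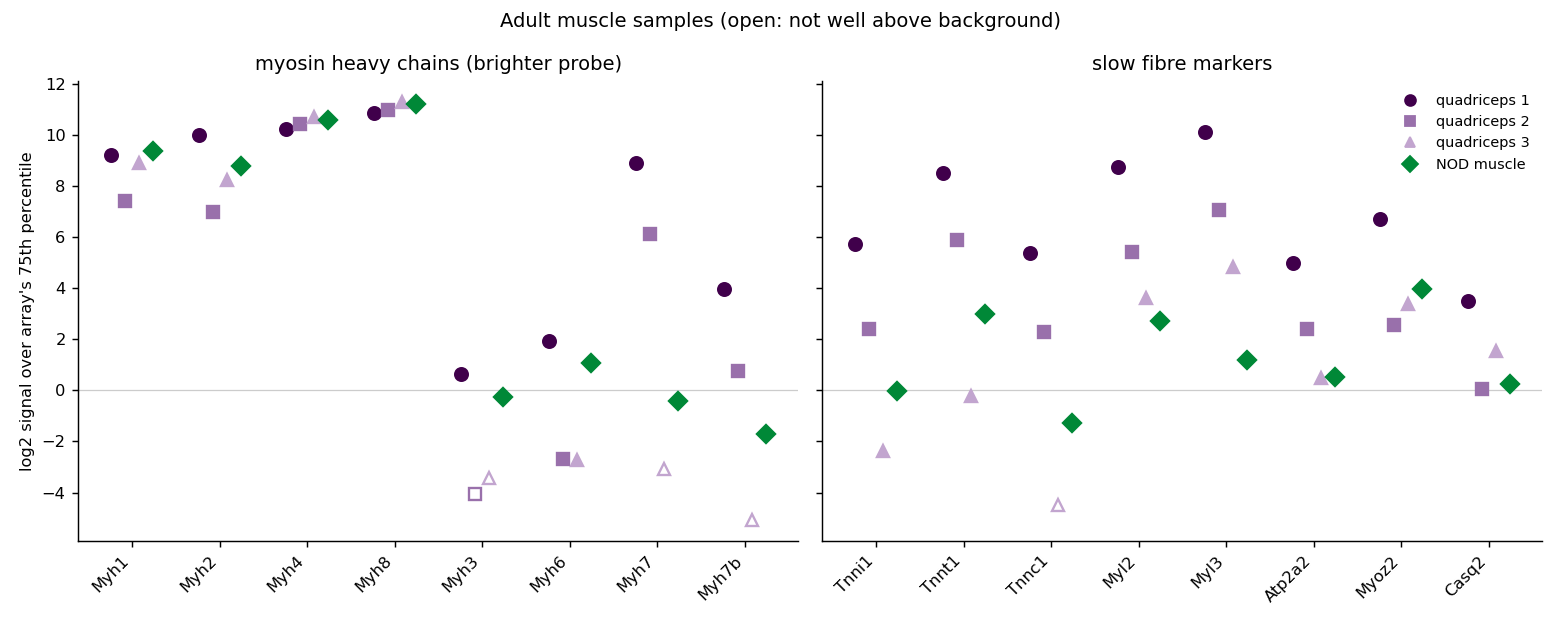
Level of each member (log2 relative to the array's 75th percentile) in the 3 quadriceps samples and the NOD muscle, taking the brighter probe of a gene. Myh4 and Myh8 lie close together in the 4 muscle samples, while Myh7 and Myh7b differ between them by over 9 units.

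Myh6, the alpha chain of the heart, was the one member that fell against stem cells. Probe A_55_P2173952 was at 2.86 and 2.09 in the first stem cell samples and 2.72 and 2.63 in E14tg2, and at -2.91, -1.28 and -1.41 at passage 0. The myoblasts lay below all stem cells, and the probe fell by 4.41 on the log2 scale (SE 0.87, 21.2-fold lower, adjusted p = 4.5e-04). In proliferating myoblasts it was at -0.62, -1.92 and -2.19, 4.12 below stem cells (17.4-fold lower, adjusted p = 9.6e-04).

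On day 4 it was at -0.024, 0.42 and 0.64, above all proliferating myoblasts, with a change of 1.92 (adjusted p = 0.12) that was not called. In quadriceps it was at 1.93, -2.70 and -2.73, so that replicate 1 stood apart from the other two, and at 1.07 in the NOD muscle. Without quadriceps replicate 1 the rise over 4 days had an adjusted p of 0.0067 and quadriceps lay 3.06 below day 4 (adjusted p = 3.4e-04). With it, the difference from day 4 was -1.51 (adjusted p = 0.20).

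The other Myh6 probe, A_55_P2140453, lies 23299 bases away and was above background in 1 of 21 samples, quadriceps replicate 1, at -3.29. It was never tested, and its r with the first was 0.25. The stem cell signal of Myh6 thus rests on 1 of 2 probes. Of 11 cardiomyocyte markers 7 to 8 were above background in stem cells, 4 to 6 at passage 0, 1 to 5 in proliferating myoblasts and 2 to 4 in quadriceps. In stem cells these include Nkx2-5, Gata4, Tnni3 and Myl7, none of which was above background in quadriceps, while Hand2 and Tbx5 were not above background in stem cells. Their summed level was 1.75 to 3.08 in stem cells, 6.82 to 8.65 at passage 0, 6.57 to 10.45 in proliferating myoblasts and 2.36 to 3.32 in quadriceps, and Myl4 on the list is also a chain of embryonic skeletal muscle. The part of such cells in the Myh6 signal was not tested.

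Myh7b was at -1.11 and -0.86 in the first stem cell samples and -1.21 and -0.96 in E14tg2, at -2.00, -1.12 and 0.011 at passage 0 and at 0.28, -1.50 and -1.001 in proliferating myoblasts. It was at 0.64, 1.94 and 1.93 on day 4, above every proliferating sample. The change of 2.25 (SE 1.36, adjusted p = 0.26) was not called, nor was any other for this gene. In quadriceps it was at 3.97, 0.75 and -5.07, the last not above background, and in the NOD muscle at -1.70, the order seen for Myh7. Without quadriceps replicate 3 the rise over 4 days had an adjusted p of 0.027, and without replicate 1 quadriceps lay 3.66 below day 4 (adjusted p = 0.018). In RefSeq, Myh6, Myh7 and Myh7b host the muscle microRNA genes Mir208a, Mir208b and Mir499.

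Between members, the course of Myh8 was most like that of Myh1, with an r of 0.974 over 21 samples between their brightest probes. Myh2 and Myh4 followed each other with an r of 0.919. Myh3 followed Myh1 and Myh8 with an r of 0.981 and 0.984 over the 18 samples without quadriceps, but with 0.41 and 0.28 over all 21. Samples of a group share their treatment, and these values describe the arrays only.

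Outside the family, the genes with the course most like each member included several of the contractile apparatus. Among 17870 candidate genes, over 21 samples, they were for Myh1 the fast light chain gene Myl1 (r 0.991), the fast troponin gene Tnnt3 (0.989) and the skeletal actin gene Acta1 (0.987). For Myh8 they were Cox6a2 (0.995), Dhrs7c (0.992) and Tnni2 (0.992), and for Myh4 they were Fsd2 (0.983), Pfkm (0.982) and Yipf7 (0.982). Those for Myh2 were Perm1 (0.977), Xirp2 (0.976) and Cdnf (0.973), and those for Myh3 Prkar1a (0.981), Frmpd1 (0.976) and Dbndd1 (0.974). For Myh7 they were the slow troponin genes Tnnt1 (0.877), Tnnc1 (0.864) and Tnni1 (0.832). Myh6 was closest to Myh13 (0.919), another myosin heavy chain gene, and Myh7b to Nlrp3 (0.777).

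Partners of the heavy chains in the thick filament rose in differentiation as well. Of 9 tested genes of the thick filament and M band 9 rose over 4 days, with a median change of 3.99 beside 0.03 for all tested probes, of which 24.4% were called. Among them the fast myosin binding protein gene Mybpc2 rose by 7.69 (207-fold, adjusted p = 3.8e-05) and the slow one, Mybpc1, by 5.17. In quadriceps 4 of 9 tested were higher than on day 4 and 3 lower, beside 15.2% and 15.9% of all tested probes. Mybpc2 was higher by a further 6.06 and Mybph changed by -3.68. Of the myosin light chains 5 of 7 tested rose over 4 days, with a median of 3.12, beside 14.2% of all tested probes higher. Among them Myl2 rose by 4.75 (27.0-fold, adjusted p = 0.0047) and Mylpf by 3.46.

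In quadriceps the light chains, like the heavy chains, differed from day 4 in both directions. Of 8 tested light chains 3 were higher than on day 4 and 2 lower, beside 15.2% and 15.9% of all tested probes. Myl3 was 10.11 higher (adjusted p = 5.5e-08), and Myl4, the embryonic and atrial chain, changed by -7.73 (adjusted p = 3.8e-07). Of 11 tested genes for the folding and turnover of myosin 5 rose over 4 days and 3 fell, with a median of 0.96, beside 14.2% higher and 10.2% lower over all tested probes. Among the higher ones were Unc45b, a myosin chaperone, by 4.18 and Trim63, a ubiquitin ligase that targets heavy chains, by 3.94. In quadriceps 4 were higher and 1 lower, beside 15.2% and 15.9%, with Fbxo32 4.50 and Smyd2 2.75 above day 4.

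Among 19 tested regulators of fibre type 5 rose over 4 days and 1 fell, with a median of 0.47, a called share not far above the 24.4% of all tested probes. The higher ones include Mef2c by 4.85 (28.8-fold, adjusted p = 8.7e-06) and Tbx15 by 4.17. In quadriceps 9 of 22 were higher than on day 4 and 1 lower, beside 15.2% and 15.9% of all tested probes. Vgll2 was 6.53 higher (92.5-fold) and Tead4 changed by -4.50. Of 3 tested heavy chains outside the list of members, 1 rose and 1 fell over 4 days: Myh14 rose by 1.45 (adjusted p = 0.041) and Myh9 fell by 1.15 on the log2 scale (adjusted p = 0.026).

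The neighbours of the members on the chromosomes did not share a single course. Of 14 other probes within 50 kb of a member probe, ENSMUST00000125538 (A_55_P2337033, chr11:66925963-66926022, minus strand) lies between Myh3 and Myh2. It was at -0.66, -0.93 and -1.82 on day 4 and at 1.82, 3.11 and 2.99 in quadriceps, all above day 4. It was 3.78 higher in quadriceps (13.7-fold, adjusted p = 2.5e-05), while the nearest member, Myh3, was lower there. Both Sco1 probes, also nearest to Myh3, had lower means in quadriceps than on day 4 (-4.25 against -1.83 and -2.24 against -0.56). Slc22a17 near Myh6 did as well (0.80 against 5.25), whereas Trpc4ap near Myh7b did not (6.71 against 6.35).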

How the data were processed

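RNA was measured on 23 one-colour Agilent arrays of 3 slides. Per the file headers, Feature Extraction 10.7.3.1 made the processed signal intensity and the flags for well above background, and gives positions on mm9. A series matrix of log2 values deposited by the authors (column median 6.72, method not given in the sources used here) served as an alternative. The 3671 control spots were left out. The log2 of the processed signal minus that of the array's 75th percentile was fitted per probe with limma 3.58.1 (R 4.3.3), with a mean for each of 7 groups over 21 samples and 14 residual degrees of freedom. P-values were adjusted by Benjamini-Hochberg over all tested probes of each of 8 comparisons, and, for neighbours in an order, of each of 21 pairs of groups. A fold against a group wholly below background is a lower bound, against the higher, per array, of the probe's own signal and the lowest signal well above background.

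The fit was tested on simulated data for day 4 against proliferating myoblasts over 55681 probes: 77 of 100 changes of 2 and 97 of 100 changes of 4 on the log2 scale were recovered. The changed probes were all above background in all 21 samples, with independent noise of equal spread in every group. The recovery thus does not describe fainter members or those with a wider spread in quadriceps. The members and lists were chosen with earlier results of these data known. Named genes were all member probes, probes within 50 kb, the 3 genes most like each member, the 2 called genes of each list with the largest change in each of the last 2 comparisons, and markers beside a result. Only the spread between these samples enters the p-values, and it may be technical. There were 32 alternatives, of which 21 leave out 1 sample. The NOD muscle entered 1 of them. Python 3.11.15 was used for tables.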

Additional observations from a re-analysis of the deposited data

Results flagged for a closer look

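The NOD muscle sample stands outside the comparisons, and 6 member probes were brighter in it than in the brightest stem cell array, where a probe not above background is taken at its floor. Myh1 was at 9.38 against -4.38, Myh2 at 8.77 against -4.38 and Myh4 at 10.58 against -1.81. Myh8 was at 6.58 against -4.38 by probe A_55_P2120161 and at 11.20 against -0.80 by A_51_P143296. Myh7 was at -0.40 against -0.47, a difference smaller than that between stem cell arrays. The sample has no replicate and was not tested.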

How the results depend on the processing

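No member change reversed its direction with a call on either side under the 32 alternatives. The count of member probes higher at passage 0 than in stem cells was 3 where only probes above background in both groups were tested. The count that rose on day 1 was 0 when only those 2 groups were fitted. The count that rose from day 1 to day 2 was 2 with normexp. From day 2 to day 4 it was 2 with normexp, with quantile normalization and with the authors' values, and 1 with the NOD sample added. The count lower in quadriceps than on day 4 was 0 where both groups had to be above background, since Myh3 is then not tested, and 1 with the brightest probe per gene.

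Leaving out 1 sample, the higher counts ranged over 5 to 6 against stem cells for both myoblast groups, 2 to 6 on day 1 (2 without day 1 replicate 3, 3 without proliferating replicate 3), 0 to 2 from day 1 to day 2 (2 without day 1 replicate 3) and 0 to 2 from day 2 to day 4 (2 without proliferating replicate 1, 1 without proliferating replicate 2). They ranged over 7 to 8 over 4 days and 2 to 3 in quadriceps, where the lower count was 2 to 4 (4 without quadriceps replicate 1). With the replicate number as a block, all 8 pairs of member counts were as without it, for example 7 higher over 4 days. That block joins samples of all 7 groups by replicate number. Outside proliferating myoblasts and myotubes it does not stand for a culture, so it cannot test a pairing there. The titles number the passage 0 samples 26, 30 and 42, so number 26 occurs at passage 0 (replicate 1) and in proliferating myoblasts (replicate 2). They give proliferating myoblasts and all myotubes culture numbers 21, 26 and 28, without saying what the numbers mark. After group means were removed, same-numbered samples correlated across probes at over 0.1 in all 3 cultures between days 1 and 4 (0.21 to 0.73). In the other 5 pairs of these groups some cultures did and some did not (-0.27 to 0.64), so the numbers were not taken as a pairing. The number of arrays limits the precision.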
